A study of Mus musculus with 8 samples.

Results

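Il33, Il1rl1, Tslp, Crlf2, Il4ra, Il13ra1 and Stat6 are 7 of the 23171 genes in the deposited count table, and all 7 symbols were found there. They hold the epithelial alarmins, their receptors and the IL-4 and IL-13 receptor pathway. The set was chosen by function and, for Il33 and Il4ra, selected on their lower counts in knockout than in control epidermis, so for those 2 genes the genotype difference is a description and carries no p-value. Total RNA came from epidermis, with keratinocytes given as the cell type. The knockout group (cKO, 4 mice) has an epidermis-specific knockout of Hnrnpu, which encodes a nuclear RNA-binding protein of the hnRNP family, and the comparison group is labelled WT (4 mice). All 8 mice had received imiquimod, a Toll-like receptor 7 agonist that causes psoriasis-like inflammation on mouse skin, so no untreated skin stands beside these values. The groups are described without the Cre driver, deleted exons, strain, sex or age, all not given in the sources used here.

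IL-33 and TSLP are cytokines that keratinocytes make and that alert immune cells when the skin barrier is disturbed. IL-33 is stored in the nucleus and, once outside the cell, binds a receptor formed by ST2 (the product of Il1rl1) and the shared IL-1 receptor accessory protein. TSLP binds a receptor formed by the Crlf2 product and the IL-7 receptor α chain. Both act on mast cells, innate lymphoid cells, dendritic cells and T helper cells, some of which make IL-4 and IL-13 in turn. Those cytokines signal back to keratinocytes through a receptor that pairs IL-4Rα (Il4ra) with IL-13Rα1 (Il13ra1) and activates the transcription factor STAT6.

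The bases in front of the start sites of Il33 and Il4ra are shown because these are the genes with the lower counts that prompted the choice. RefSeq (GRCm38.p6) places 2 start sites in Il33, and the counts per gene do not tell transcripts from one site from those of the other. Each line gives the 250 bases before the start site, on the plus strand, 5′ to 3′. Capitals mark matches to any of 5 motifs searched on both strands. These were TTCNNNGAA (STAT factors), the same with 1 more base of any kind in the middle (the spacing STAT6 prefers), TGANTCA (AP-1) and TATAAA, the core promoter element that the TBP protein binds. The last, a form of the κB site, was GGG and TTTCC with 2 bases of any kind between. No matches overlapped in the windows shown.
Il33, upstream start site, chr19:29924863-29925112: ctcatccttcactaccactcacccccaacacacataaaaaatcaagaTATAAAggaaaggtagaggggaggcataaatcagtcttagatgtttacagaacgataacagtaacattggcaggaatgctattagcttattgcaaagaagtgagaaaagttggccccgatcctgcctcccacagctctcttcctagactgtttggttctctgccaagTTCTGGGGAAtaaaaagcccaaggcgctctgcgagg
Il33, downstream start site, chr19:29945540-29945789: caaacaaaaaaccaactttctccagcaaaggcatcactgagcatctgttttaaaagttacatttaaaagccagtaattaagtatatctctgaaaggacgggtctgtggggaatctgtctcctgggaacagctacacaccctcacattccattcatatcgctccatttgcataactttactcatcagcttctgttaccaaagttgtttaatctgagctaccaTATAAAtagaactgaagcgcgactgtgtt
Il4ra, chr7:125552021-125552270: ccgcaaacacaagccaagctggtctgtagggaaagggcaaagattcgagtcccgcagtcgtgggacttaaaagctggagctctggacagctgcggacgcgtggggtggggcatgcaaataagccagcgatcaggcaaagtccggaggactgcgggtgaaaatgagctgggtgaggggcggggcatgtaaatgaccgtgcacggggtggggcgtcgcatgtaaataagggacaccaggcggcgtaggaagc

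The upstream Il33 window holds TTCTGGGGAA, a match to the STAT6 spacing, at 36 to 27 bases before the start, and TATAAA at 203 to 198 bases before it. The downstream Il33 window holds TATAAA at 29 to 24 bases before the start. No letters of the Il4ra window matched any of the 5 motifs, nor did those of the windows of Il1rl1, Crlf2, Il13ra1 and Stat6. Among all 32851 RefSeq windows of the same length, 5.85% held the STAT6 motif, 7.02% the other STAT motif, 6.75% TGANTCA, 1.41% the κB motif and 12.4% TATAAA. The windows also differ in base composition. G and C made up 45.2% and 39.6% of the Il33 windows, 59.6% of the Il4ra window and 70.8% of the Il13ra1 window, beside a median of 52.4% over all windows. A match is a description of the letters and not evidence of binding. Tslp has no entry among the windows used.

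Libraries held 37158621 to 38865722 counts. Hnrnpu stood at 43.4%, 85.3%, 81.1% and 71.3% of the WT mean in cKO replicates 1 to 4, below every WT library, and did not pass the test (log2 fold change -0.51 ± 0.19 SE, edgeR quasi-likelihood test, adjusted p = 0.191). The first principal component of log2 expression (35.8% of the variance) put all cKO libraries on one side and all WT libraries on the other. The second (26.1%) set cKO replicates 1 and 4 (36.7 and 56.8) apart from cKO replicates 2 and 3 (-35.8 and -27.7), with WT libraries between -12.4 and 3.30. Levels are CPM (counts scaled to the library total with TMM factors) unless FPKM, which also divides by gene length, is named. Fold changes are cKO over WT, and called genes are those with an adjusted p below 0.05.

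Of the 7 genes, 6 had enough counts to be tested. Il1rl1 did not. Il33 and Il4ra were called lower, where 0.65% of all 14004 tested genes were, but these are the genes whose lower counts chose the set and nothing is read from that count. Both calls were lost without cKO replicate 1 or any 1 WT replicate. None of the 6 was called higher, where 0.671% of all tested genes were, and 1.32% were called in either direction. All cKO libraries lay below all WT libraries in Il33 and Il4ra, from which nothing is read either. Of the 4 tested genes not selected on their counts, this held for Il13ra1, as it did for 5.82% of all tested genes, and in Tslp, Crlf2 and Stat6 the genotypes overlapped.

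**Figure D1:**
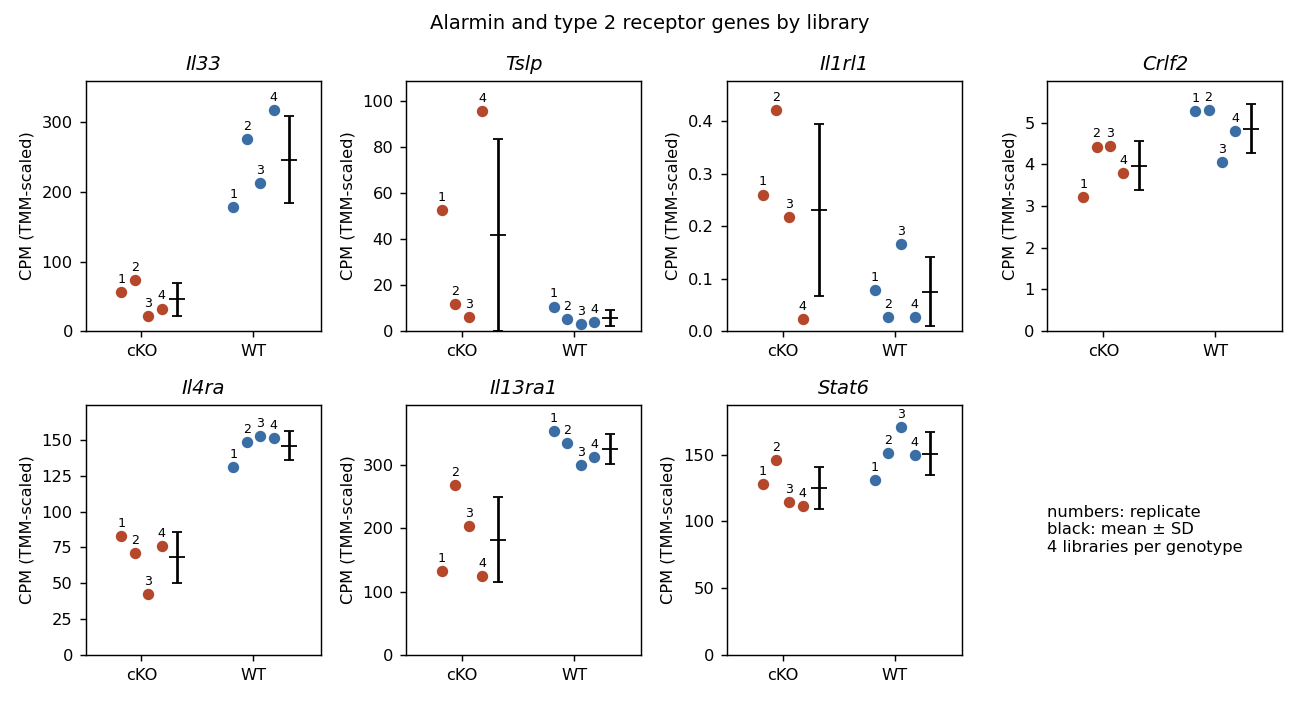
CPM of the 7 genes in each library, cKO (red) left of WT (blue), with replicate numbers beside the points and the mean ± SD of 4 libraries in black. Il33 ran from 21.4 to 73.5 CPM in cKO and from 178 to 318 CPM in WT, while Tslp reached 52.7 and 95.8 CPM in cKO replicates 1 and 4 alone.

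Il33, the IL-1 family alarmin, had 56.6, 73.5, 21.4 and 32.6 CPM in cKO replicates 1 to 4, against 178, 277, 213 and 318 CPM in WT replicates 1 to 4. Every cKO library was below the lowest WT library, and cKO replicates 3 and 4 were the lowest of all. The means were 46.0 ± 23.5 CPM in cKO, against 246 ± 62.8 CPM in WT (n = 4 each, SD), a fitted log2 fold change of -2.42 ± 0.37 (SE), or 5.36-fold lower. As a share of the WT mean, the cKO libraries stood at 23.0%, 29.8%, 8.68% and 13.2%. In bulk epidermis, fewer cells that make a transcript and less of it per cell cannot be told apart. Hnrnpu itself was lowest in cKO replicate 1, whereas Il33 was lowest in cKO replicate 3.

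Tslp, the other alarmin, differed more among cKO mice than the other 5 tested genes. It had 52.7, 12.02, 6.13 and 95.8 CPM in cKO replicates 1 to 4, against 10.7, 5.20, 3.19 and 4.18 CPM in WT replicates 1 to 4. The cKO replicates 1, 2 and 4 were above every WT library, with replicate 2 only just so, and cKO replicate 3 was within the WT range. The highest cKO library was 15.6 times the lowest, and the highest WT library 3.36 times the lowest. Mean levels were 41.7 ± 41.6 CPM in cKO, against 5.82 ± 3.37 CPM in WT (n = 4 each, SD). The log2 fold change of 2.84 ± 0.81 (SE, 95% confidence interval 1.01 to 4.66) did not pass the edgeR quasi-likelihood test (adjusted p = 0.110). It was 2.03 without cKO replicate 4 and 3.33 without WT replicate 1, and only DESeq2 among the alternatives called it (adjusted p = 0.0211, over alternatives 0.0211 to 0.341).

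The spread of Tslp among cKO libraries was wide beside other genes too. The SD of its log2 CPM was 1.83 over the cKO libraries, above that of 99.3% of tested genes, and 0.74 over the WT libraries, above 93.1%. The corresponding SD of Il33 was 0.80 in cKO and 0.38 in WT. Il4ra had an SD of 0.43 in cKO and 0.10 in WT, and Il13ra1 0.53 in cKO and 0.10 in WT. Crlf2 (0.22 in cKO and 0.18 in WT) and Stat6 (0.18 in cKO and 0.15 in WT) varied little in either genotype. The median over all tested genes was 0.28 in cKO and 0.19 in WT.

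Of the alarmin receptor chains, Il1rl1 and Crlf2 were scarce. Their partner chains Il1rap and Il7r averaged 39.4 and 5.74 CPM in cKO, against 41.8 and 4.57 CPM in WT. Neither partner was called (edgeR adjusted p = 0.805 and 0.744). Il1rl1, which encodes both membrane-bound and soluble ST2, had 10, 15, 9 and 1 counts in cKO replicates 1 to 4, against 3, 1, 6 and 1 counts in WT replicates 1 to 4. The genotypes overlap, the counts are too few for a test, and counts per gene do not separate the 2 forms. Crlf2, the TSLP receptor chain, had 3.22, 4.43, 4.44 and 3.78 CPM in cKO, against 5.27, 5.31, 4.05 and 4.79 CPM in WT. Those ranges overlap through WT replicate 3, and the log2 fold change of -0.29 ± 0.18 (SE, 95% confidence interval -0.70 to 0.12) did not pass (edgeR adjusted p = 0.430).

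Il4ra, the chain shared by the IL-4 and IL-13 receptors, had 83.1, 70.7, 42.5 and 75.7 CPM in cKO replicates 1 to 4, against 131, 149, 152 and 151 CPM in WT replicates 1 to 4. The genotypes do not overlap, and cKO replicate 3 stands lowest. The means were 68.0 ± 17.8 CPM in cKO, against 146 ± 10.05 CPM in WT (n = 4 each, SD), and the fitted log2 fold change was -1.10 ± 0.19 (SE), or 2.15-fold lower.

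Il13ra1, the partner chain that binds IL-13, had 133, 268, 204 and 124 CPM in cKO replicates 1 to 4, against 354, 334, 300.3 and 312 CPM in WT replicates 1 to 4. All cKO libraries were again below all WT libraries, but here replicates 1 and 4 were lowest. With means of 182 ± 67.5 CPM in cKO, against 325 ± 23.7 CPM in WT (n = 4 each, SD), the log2 fold change of -0.84 ± 0.23 (SE) did not pass the edgeR test (adjusted p = 0.1004). It passed without cKO replicate 2 (log2 fold change -1.07, adjusted p = 0.0227) and with DESeq2 (adjusted p = 0.0130), within a range of 0.0130 to 0.205 over all alternatives.

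Stat6, the transcription factor that the receptor activates, had 128, 146, 115 and 112 CPM in cKO replicates 1 to 4, against 131, 152, 171 and 150.1 CPM in WT replicates 1 to 4. The ranges overlap, with cKO replicates 1, 3 and 4 below every WT library and cKO replicate 2 within the WT range. Its log2 fold change of -0.27 ± 0.12 (SE, 95% confidence interval -0.54 to -0.0036) did not pass (edgeR adjusted p = 0.263).

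**Figure D2:**
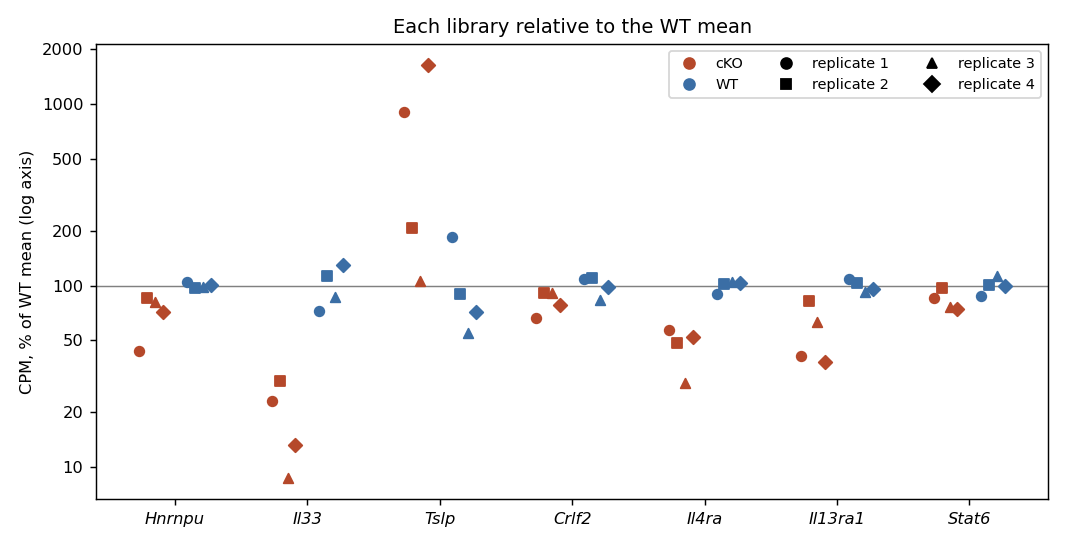
CPM of each library as a percent of the WT mean of that gene, on a log axis, for Hnrnpu and the 6 tested genes, with cKO (red) left of WT (blue) and a marker shape per replicate number (the same number does not pair mice). Il33 in cKO lay between 8.68% and 29.8%, Tslp in cKO between 105% and 1646%, and Stat6 in cKO between 74.0% and 96.7%.

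The IL-4Rα and IL-13Rα1 transcripts were lowest in different cKO libraries. Per length, the Il13ra1 level was 2.24, 5.32, 6.73 and 2.30 times the Il4ra level in cKO replicates 1 to 4, against 3.79, 3.16, 2.77 and 2.89 times in WT replicates 1 to 4. The cKO ratios thus lay on either side of the WT range, below it in replicates 1 and 4 and above it in replicates 2 and 3. The mean ratio was 4.15 ± 2.24 in cKO, against 3.15 ± 0.456 in WT (SD, n = 4 each). Replicates 1 and 4 were also the cKO libraries with high Tslp and those that the second principal component set apart, and whether these are linked was not tested.

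**Figure D3:**
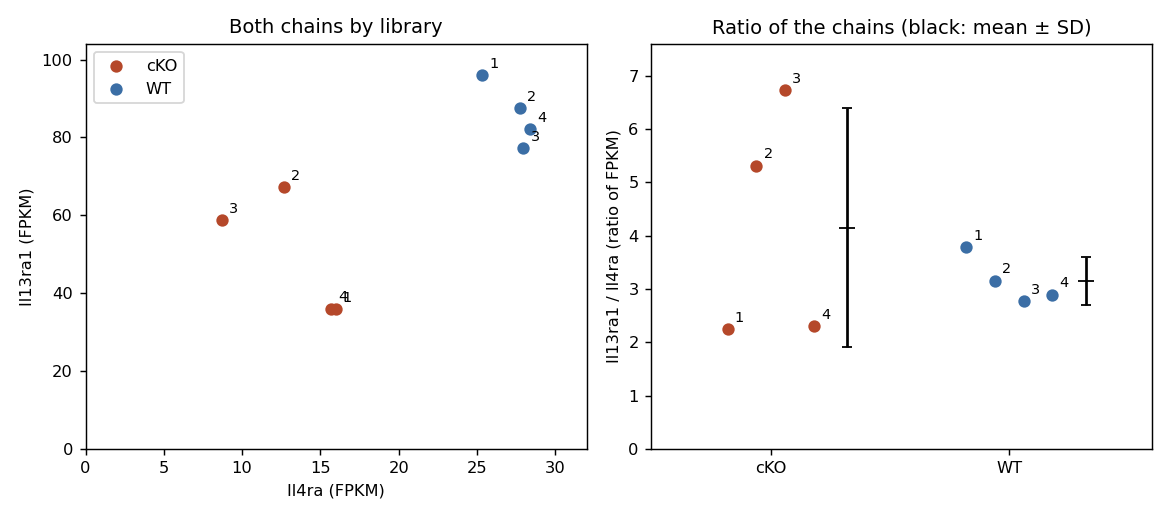
Left, FPKM of Il13ra1 against FPKM of Il4ra in each library, numbered by replicate, for cKO (red) and WT (blue). Right, the ratio of Il13ra1 to Il4ra FPKM, cKO left of WT, with the mean ± SD of 4 libraries in black. The cKO ratios lay between 2.24 and 6.73 and the WT ratios between 2.77 and 3.79.

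Compared per length, the order of the 7 genes differed between the genotypes. In cKO, Il13ra1 was highest at 49.5 ± 16.0 FPKM, followed by Tslp at 38.5 ± 39.8, Stat6 at 33.4 ± 1.81, Il33 at 15.3 ± 6.89, Il4ra at 13.3 ± 3.38, Crlf2 at 2.09 ± 0.322 and Il1rl1 at 0.0306 ± 0.0203 FPKM (SD, n = 4 each). Tslp, from 5.79 to 91.5 FPKM over the cKO libraries, spans the range of its neighbours, and Il33 and Il4ra overlap there. In WT, the order was Il13ra1 at 85.7 ± 7.98, Il33 at 80.5 ± 20.1, Stat6 at 38.8 ± 3.31, Il4ra at 27.3 ± 1.38, Tslp at 5.08 ± 3.06, Crlf2 at 2.46 ± 0.333 and Il1rl1 at 0.00978 ± 0.00842 FPKM (SD, n = 4 each). The WT libraries of Il13ra1 and Il33 overlap, as do those of Tslp and Crlf2, whereas those of Stat6 and Il4ra do not. Il33 thus stood beside Il4ra in cKO and near the top of the set in WT. Both genes were chosen on their lower cKO counts, so nothing is read from their places. The place of Tslp in cKO rests on replicates 1 and 4 (46.7 and 91.5 FPKM).

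The genes whose levels ran most like Il33 were found by the root mean square difference of log2 CPM, each gene centred on its mean over the 8 libraries. These centred levels carry the genotype difference that chose Il33 and Il4ra, so the likeness is descriptive. Tubb6, a β-tubulin, was nearest to Il33 at 0.31 log2 units, followed by Csta2 of the stefin A family (0.34), Gjb2, the gap junction protein connexin 26 (0.41), Tinagl1, a matricellular protein (0.42), and Cadm4, a cell adhesion molecule (0.47). Tubb6 had 25.0, 33.5, 9.05 and 25.7 CPM in cKO replicates 1 to 4, against 76.7, 108, 80.2 and 159 CPM in WT replicates 1 to 4. Like Il33 it was lowest in cKO replicate 3 and highest in WT replicate 4. Stefin A genes have near-identical copies, and with the counting of shared reads not stated, the Csta2 value is uncertain.

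Nearest to Il4ra were Stab1, the scavenger receptor stabilin-1 (0.11 log2 units), Plau, the urokinase plasminogen activator (0.13), Tpcn2, an endolysosomal ion channel (0.16), Thbd, thrombomodulin (0.18), and Itga5, the fibronectin receptor integrin α5 (0.20). Plau had 55.0, 59.8, 31.7 and 59.6 CPM in cKO replicates 1 to 4, against 111, 108, 108 and 131 CPM in WT replicates 1 to 4. It shared with Il4ra the lowest level in cKO replicate 3. Within the set, Crlf2 and Stat6 were nearest to each other (0.25). The measure is small for any genes that vary little, as these do, and does not show that they vary together. In WT replicate 3, Stat6 had its highest level (171 CPM) and Crlf2 its lowest among WT libraries (4.05 CPM). Il4ra stood 0.50 from Stat6, its nearest, 0.53 from Il13ra1 and 0.80 from Il33. Il13ra1 was nearest to Crlf2 (0.39), and Tslp was 1.79 or more from each of the other 5 tested genes.

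Further genes of the pathway were described from a list of 81, of which 75 were analysed here and 65 had enough counts to be tested. Of the 65, 1 was called lower and 0 higher by edgeR, at background rates of 0.65% and 0.671%. At an unadjusted p below 0.05 in the same test, 9 had a lower and 12 a higher level. Over all 14004 tested genes, 2602 passed that unadjusted threshold in either direction. DESeq2, run without that filter, called 7 pathway genes lower and 10 higher, where it called 1294 of 23153 genes in either direction. Those 23153 include many genes with too few counts for the edgeR test, and most pathway genes had enough. The DESeq2 shares are therefore unlike and are not compared. The median log2 fold change of the 65 was -0.01, beside 0.01 over all tested genes. In 8 of them all cKO libraries lay below all WT libraries and in 6 above, where 5.82% and 5.26% of all tested genes did so.

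The called gene was Socs3, a feedback inhibitor of JAK-STAT signalling that STAT3 induces. It had 23.0, 27.9, 23.9 and 26.3 CPM in cKO replicates 1 to 4, against 54.3, 43.1, 124 and 92.9 CPM in WT replicates 1 to 4. The cKO libraries were close together and below a wide WT range. The means were 25.3 ± 2.26 CPM in cKO, against 78.7 ± 37.1 CPM in WT (n = 4 each, SD), and Socs3 fell 3.11-fold (edgeR adjusted p = 0.0363, log2 fold change -1.64 ± 0.30 SE). The call was lost without cKO replicate 1 (adjusted p = 0.0892), 3 (0.0837) or 4 (0.0554) and without WT replicate 1 (0.0595), 3 (0.0793) or 4 (0.108). It was also lost with limma-voom (0.0532) and with the replicate number as a block in edgeR (0.0544). The 2 FPKM fits with a pseudocount of 1 lost it too (0.0555 and 0.131). Of the other 7 inhibitors none was called, among them the phosphatase genes Ptpn1 (-0.27 ± 0.13, adjusted p = 0.325) and Ptpn11 (-0.12 ± 0.08, adjusted p = 0.482). Socs1, named here after its values were seen, had 1.72 to 2.94 CPM in cKO and 3.35 to 12.2 CPM in WT without passing (edgeR adjusted p = 0.0726).

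The type 2 cytokines had few or no counts. Il4 had at most 2 counts in any cKO library and 0 in every WT library, Il13 at most 2 in cKO and 1 in WT, and Il5 at most 1 in either genotype. A count of 0 allows up to 3 counts per library, for counting error alone. Il25, an epithelial cytokine that also drives type 2 responses, was named after its counts were seen. It had 9, 1, 7 and 7 counts in cKO replicates 1 to 4, against 0 in each of the 4 WT libraries, too few for a test. Of the 2 ligands with enough counts, Il18 averaged 122 ± 64.8 CPM in cKO, against 66.8 ± 26.5 CPM in WT (n = 4 each, SD, edgeR adjusted p = 0.330, log2 fold change 0.87 ± 0.44 SE), and Il7 averaged 1.25 ± 0.895 CPM in cKO, against 0.926 ± 0.254 CPM in WT (adjusted p = 0.666). The sign of Il7 turned to -0.19 without cKO replicate 3.

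None of the 11 other receptor genes tested was called. Il1rap, the accessory chain of the IL-33 receptor, was at 39.4 ± 4.52 CPM in cKO, against 41.8 ± 7.97 CPM in WT (n = 4 each, SD, log2 fold change -0.09 ± 0.14 SE, edgeR adjusted p = 0.805), with 0.050 without WT replicate 3. Osmr, which encodes the oncostatin M receptor and a chain of the IL-31 receptor, was at 40.7 ± 6.74 CPM in cKO, against 75.4 ± 24.7 CPM in WT (-0.89 ± 0.23, adjusted p = 0.0872). Its ranges did not overlap. Il31ra, the other IL-31 receptor chain, named here after its values were seen, had 2.65, 1.20, 2.89 and 9.52 CPM in cKO replicates 1 to 4, against 0.891, 0.525, 0.305 and 0.321 CPM in WT replicates 1 to 4. All cKO libraries were above all WT libraries and replicate 4 was highest, as for Tslp, but the difference did not pass (log2 fold change 2.98 ± 0.66 SE, edgeR adjusted p = 0.0568).

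Kinases and STAT factors mostly had small negative fold changes. Of 8 tested, 7 were below 0 (median log2 fold change -0.18), beside 48.1% of all tested genes, and none was called. Jak1, the kinase bound to IL-4Rα, stood at 190 ± 12.6 CPM in cKO, against 227 ± 3.30 CPM in WT (n = 4 each, SD, -0.26 ± 0.08 SE, edgeR adjusted p = 0.135). Stat3 stood at 211 ± 11.6 CPM in cKO, against 277 ± 23.3 CPM in WT (-0.39 ± 0.09, adjusted p = 0.0685). In both the genotypes did not overlap. Nor did they in Jak2, named after its values were seen, at 26.9 to 29.1 CPM in cKO and 33.3 to 55.6 CPM in WT (-0.69 ± 0.15, adjusted p = 0.0552). Of 8 genes that carry or restrain the IL-33 signal from its receptor, 7 were below 0 (median -0.11) and none was called. Tollip, an inhibitor, was at -0.14 ± 0.14 (SE, adjusted p = 0.621), and the ubiquitin ligase gene Traf6 at -0.07 ± 0.20 (adjusted p = 0.891), with 0.077 without cKO replicate 4 and 0.0014 without WT replicate 2.

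Genes that IL-4 and IL-13 are known to induce, mostly in macrophages and stromal cells, included no called gene among 10 tested. Of the 10, 7 lay above 0 (median log2 fold change 0.78), where 48.1% of all tested genes lay below 0. Mgl2, Irf4, Alox15, Chil3 and Mrc1 averaged only 0.374 to 0.824 CPM over all libraries. The median fell between Irf4 (0.59) and Alox15 (0.97), so it rests on genes with few counts. Postn, the matricellular protein periostin, had 189, 221, 309.8 and 311 CPM in cKO replicates 1 to 4, against 178, 107, 88.0 and 106 CPM in WT replicates 1 to 4. All cKO libraries were above all WT libraries, the lowest cKO library only just above WT replicate 1, and the log2 fold change of 1.11 ± 0.24 (SE) did not pass (edgeR adjusted p = 0.0553). Ccl22, a chemokine for CCR4-bearing T cells named after its values were seen, had 2.68 to 5.41 CPM in cKO and 0.305 to 1.20 CPM in WT (2.06 ± 0.42, adjusted p = 0.0516). Gata3, which keratinocytes also express, was at 0.32 ± 0.26 (adjusted p = 0.542). Arg1, which encodes arginase 1 and was also named after its values were seen, averaged 65.9 ± 52.8 CPM in cKO, against 145 ± 73.7 CPM in WT, with overlapping ranges (-1.14 ± 0.54, adjusted p = 0.297).

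Regulators of keratinocyte Tslp, among them calcium-entry and nuclear receptor genes, included no called gene among 12 tested. Of the 12, 9 were positive (median log2 fold change 0.19), where 48.1% of all tested genes were negative. The most abundant were the retinoid receptor genes Rxra (0.03 ± 0.11 SE, edgeR adjusted p = 0.910, with -0.0027 without cKO replicate 2 and -0.019 without WT replicate 3) and Rarg (0.17 ± 0.09, adjusted p = 0.349). Stim1, the calcium sensor of store-operated entry, and Nfatc1, a calcium-activated factor, were named after their values were seen. Stim1 had 77.0 to 105 CPM in cKO and 48.8 to 68.4 CPM in WT (0.60 ± 0.14, adjusted p = 0.0582), and Nfatc1 36.9 to 49.5 CPM in cKO and 27.1 to 33.0 CPM in WT (0.54 ± 0.13, adjusted p = 0.0652). Other calcium-related genes of that list, also named after their values were seen, did not share 1 direction. Orai1 was at -0.04 ± 0.16 (adjusted p = 0.926), Trpv3 at -0.37 ± 0.23 (adjusted p = 0.418) and Nfatc2 at 0.84 ± 0.26 (adjusted p = 0.136). Of 6 tested proteases that cut IL-33, none was called, with the calpain genes Capn1 at -0.11 ± 0.10 (adjusted p = 0.588) and Capn2 at -0.78 ± 0.29 (adjusted p = 0.194).

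**Figure D4:**
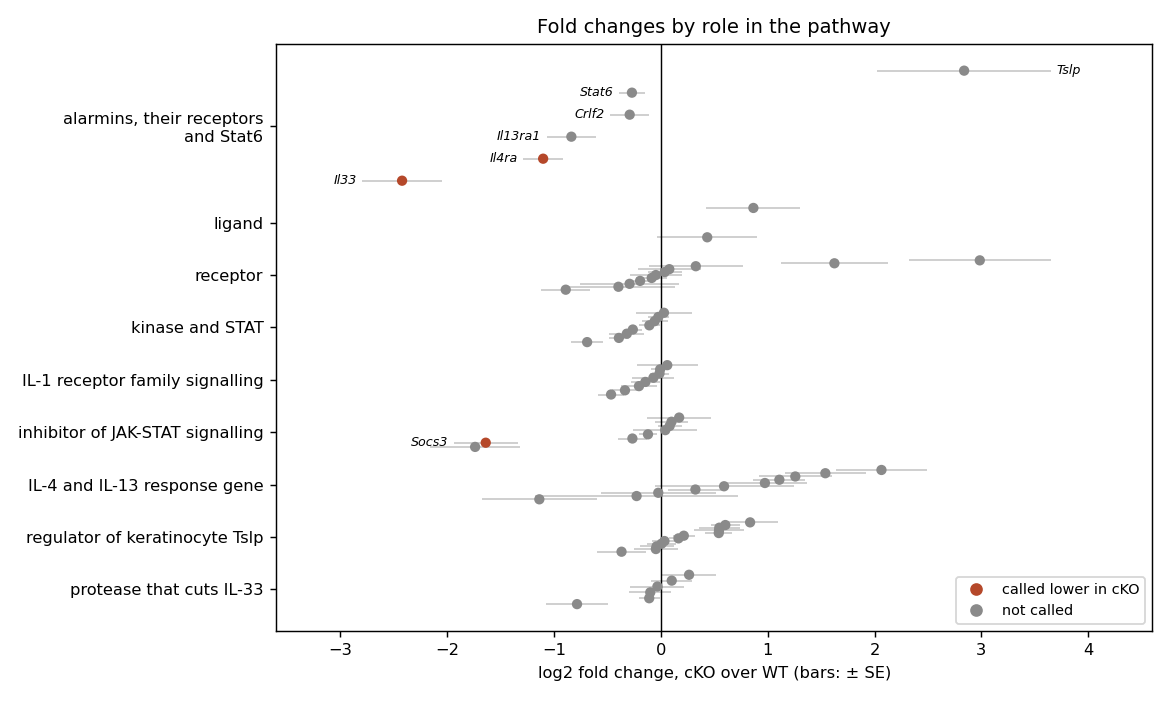
Log2 fold change of cKO over WT with its SE for the 6 tested alarmin, receptor and Stat6 genes (top, named) and 65 further tested pathway genes in rows by role, called genes in red. Il33 (-2.42) and Il4ra (-1.10), whose lower counts prompted the choice, and Socs3 (-1.64) are the called genes.

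Markers of the cells in the samples were read beside these values. Summed CPM of 9 keratinocyte markers ran from 68407 to 95712 in cKO and from 79165 to 100789 in WT, and none of the 9 was called. Markers of several cell types known to carry the IL-33 or TSLP receptor were read too. The 6 mast cell markers analysed summed to 0.0714 to 2.29 CPM in cKO and 0.498 to 2.46 CPM in WT, with Cpa3, Mcpt4 and Tpsb2, named as defining genes outside the 2 most abundant, at no more than 3 counts in any cKO library and 0 in every WT library. The 5 basophil and eosinophil markers summed to 0 to 0.364 CPM in cKO and 0.111 to 0.214 CPM in WT. The 6 markers of type 2 innate lymphoid and T helper cells, led by Icos and Ccr4, summed to 3.64 to 10.6 CPM in cKO and 3.01 to 20.7 CPM in WT. Beside those 2, the list's markers averaged at most 0.596 CPM in cKO and 1.32 CPM in WT. Its sum was lowest in WT replicate 2 and highest in WT replicate 4, as was the T cell sum given below. The 9 Langerhans and dendritic cell markers, led by Cd74 and H2-Ab1, summed to 133 to 477 CPM in cKO and 192 to 267 CPM in WT, with cKO replicate 4 lowest of all. Enough counts for a test were found in 1 of the 6 mast cell markers and 0 of the 5 basophil and eosinophil markers. The same held for 3 of the 6 type 2 lymphoid and 7 of the 9 Langerhans and dendritic cell markers. None of the tested genes was called, the others could not be, and all these sums overlap between the genotypes.

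The sums of 6 T cell markers (10.8 to 33.0 CPM in cKO and 9.26 to 59.9 CPM in WT), 8 macrophage markers (29.4 to 69.3 CPM in cKO and 43.6 to 51.4 CPM in WT) and 6 neutrophil markers (6.58 to 30.0 CPM in cKO and 18.7 to 35.9 CPM in WT) overlapped as well. So did those of 7 fibroblast markers (1.09 to 3.75 CPM in cKO and 1.18 to 9.95 CPM in WT) and 7 endothelial markers (1.88 to 3.30 CPM in cKO and 2.76 to 4.25 CPM in WT). Most of the neutrophil sum was Cxcr2, with means of 14.3 CPM in cKO and 25.7 CPM in WT. The other neutrophil markers averaged at most 0.217 CPM in cKO and 1.65 CPM in WT, so the sum describes Cxcr2 more than the list. Tested were 6 of the 6 T cell, 7 of the 8 macrophage and 2 of the 6 neutrophil markers. Of the fibroblast markers 4 of 7 were tested, and of the endothelial markers 2 of 7. No tested gene of these 5 lists was called, and the untested ones could not be. The 6 melanocyte markers were the exception, with sums of 59.7 to 118 CPM in cKO and 34.3 to 52.2 CPM in WT, all 6 fold changes positive and Mitf, named for its call, higher (log2 fold change 1.24 ± 0.17 SE, edgeR adjusted p = 0.0200). Their part in the values above was not tested.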

How the data were processed

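RNA from the epidermis of 8 imiquimod-treated mice (4 cKO and 4 WT, grouped by the labels, which give the same batch for all) was measured by RNA-seq. The authors deposited raw read counts by gene symbol and, as a second table, FPKM of those genes. HISAT2 and HTSeq were used, per the submitters' processing notes. Versions, genome build, annotation and use of strand were not given in the sources used here. Reads from antisense genes may therefore be mixed in. The deposited FPKM equal count over length and column total in 20863 of 20863 genes that had counts in 2 or more libraries (relative tolerance 1e-04), so they hold the same reads.

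The 23171 genes were filtered with filterByExpr (14004 left), scaled with TMM factors and compared with the edgeR 4.0.16 quasi-likelihood test in R 4.3.3 without covariates. Adjustment was by Benjamini-Hochberg over the 14004 genes. Standard errors are those implied by the F statistic. Principal components and likeness use log2 CPM with a prior count of 2. The fit was first tested on simulated data. No pair of libraries of a genotype agreed within sampling noise (lowest chi-square per degree of freedom 47.9). The design text gives 4 mice per genotype.

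The genes, lists and tests were chosen with earlier results of these data known. Named genes are the 7 members, Hnrnpu, called pathway genes, the 2 most abundant uncalled genes per role, the 5 genes of at least 4 CPM most like Il33 and Il4ra (10025 compared, gene models and pseudogenes left out) and up to 2 of the most abundant markers per list. Other genes were named after their values were seen. Alternatives were DESeq2 1.42.0, limma-voom (limma 3.58.1), RLE factors, scaling by library size, all genes without a filter, a minimum of 1 CPM in 4 libraries, fits by limma to log2(FPKM + 1) or log2(FPKM + 0.1) at a mean of at least 0.5 FPKM, log2(FPKM + 1) unfiltered, the replicate number as a block, and each library left out.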

Additional observations from a re-analysis of the deposited data

Results flagged for a closer look

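Of 70 groups of 4 libraries examined, 3 held a library far from the other 3, where chance gives about 1 in 20. Il7 was at 2.58 CPM in cKO replicate 3, against 0.642 to 0.910 CPM in the other cKO libraries. Tinagl1, of the genes most like Il33, was at 20.2 CPM in cKO replicate 2, against 7.83 to 8.97 CPM in the others. Plau, of those most like Il4ra, was at 131 CPM in WT replicate 4, against 108 to 111 CPM in the others. The spread of Tslp among cKO libraries did not set 1 library apart in this way, since replicates 1 and 4 were both high.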

How the results depend on the processing

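Of the 7 genes, the 2 called lower (Il33 and Il4ra) became 0 without cKO replicate 1 or any 1 WT replicate, 2 without cKO replicate 3 or 4 and 3 without cKO replicate 2, a range of 0 to 3, and 0 in the unfiltered log2(FPKM + 1) fit. Log2 fold changes ran from -2.72 to -2.18 for Il33 and from -1.20 to -0.92 for Il4ra over all alternatives. Called higher were 0 in each fit without a library and 1 with DESeq2. Pathway genes called lower (1) ranged from 0 to 2 without single libraries and were 0 with limma-voom, both log2(FPKM + 1) fits and the replicate block, 2 without the filter and 7 with DESeq2. Those called higher (0) ranged from 0 to 5 without single libraries and were 1 with library size only, 1 in both filtered FPKM fits, 1 with the replicate block, 3 without the filter and 10 with DESeq2. Over all genes, 91 lower and 94 higher became 3 to 255 lower and 5 to 251 higher without single libraries, 587 and 707 with DESeq2, 172 and 177 without the filter, and 8 and 11 in the unfiltered FPKM fit. Without single libraries, log2 fold changes ran across 0 for Il7 (-0.19 to 0.66), Il1rap (-0.14 to 0.050), Traf6 (-0.26 to 0.077, and 0.0014 without WT replicate 2) and Rxra (-0.019 to 0.11, and -0.0027 without cKO replicate 2). Of 609 values for 34 genes, 517 kept direction and side of the threshold, 63 lost it, 23 passed it and 6 reversed. The causes were not tested. Replicate numbers do not pair the mice: deviations of same-numbered libraries correlated at -0.10, 0.13, 0.10 and 0.19, and cKO replicate 1 correlated best with WT replicate 4. With the replicate number as a block, 92 genes were lower and 124 higher, 98 of the 216 also called without it. Under the block the Socs3 call was lost (log2 fold change -1.52, edgeR adjusted p = 0.0544) and Il18 passed (0.81, adjusted p = 0.0492), as did Csta2, Cadm4 and Thbd, while the Stab1 call was lost. Il1rl1, Il4, Il13, Il5 and Il25 are limited by depth.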

Other observations

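The genes whose levels ran most like Tslp were looked up after its values were seen. Their differences from it were larger than those between Il33 or Il4ra and their neighbours. The measure is not scaled to a gene's own spread, which was wide for Tslp, so it does not show a weaker likeness. The genes nearest to Tslp were Tspyl4 (root mean square difference 0.71 log2 units), Zfp365 (0.80), Cd34, a marker of follicle stem cells (0.80), Mcam (0.84) and Pck2, the mitochondrial phosphoenolpyruvate carboxykinase (0.84). Zfp365 had 20.5, 5.71, 6.08 and 16.4 CPM in cKO replicates 1 to 4, against 2.81, 2.76, 2.89 and 2.46 CPM in WT replicates 1 to 4. Like Tslp it was highest in cKO replicates 1 and 4, but here all cKO libraries were above all WT libraries. Pck2 had 11.03, 3.89, 8.11 and 53.6 CPM in cKO replicates 1 to 4, against 5.01, 5.61, 2.64 and 3.56 CPM in WT replicates 1 to 4, so that cKO replicate 2 was within the WT range.

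The decoy receptor of IL-13, Il13ra2, and the chemokine gene Ccl17 were named after their values were seen. Il13ra2 had 4.21, 2.55, 3.62 and 1.09 CPM in cKO replicates 1 to 4, against 1.05, 0.498, 0.555 and 1.61 CPM in WT replicates 1 to 4. Its ranges overlap through cKO replicate 4 and WT replicate 4, and the log2 fold change of 1.62 ± 0.50 (SE) did not pass the edgeR test (adjusted p = 0.133). Ccl17, whose product binds the same receptor as Ccl22, had 51, 6, 2 and 65 counts in cKO replicates 1 to 4, against 0, 0, 1 and 7 counts in WT replicates 1 to 4. Its higher cKO libraries were replicates 1 and 4, and it had too few counts to be tested.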
